A study of Mus musculus with 9 samples.

Results

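Carbohydrate sulfotransferases are Golgi enzymes that move a sulfate group from the donor PAPS onto a sugar of a glycan chain. The genes described here are 10 of the 54232 genes counted in the cochlear duct, namely Chst1, Chst2, Chst3, Chst5, Chst7, Chst10, Chst11, Chst12, Chst14 and Chst15, matched from Ensembl identifier to mouse symbol. They were listed as enzymes that sulfate keratan and chondroitin chains, and the list was chosen by the counts of all 9 libraries as well, Chst5 being taken up for its level in null embryos. Their differences between genotypes, and whether the fit over all genes called them, are therefore descriptions, and no p-value is printed for any of the 10. Chst10 does not meet the description of the group, since it is known for adding the sulfate of the HNK-1 carbohydrate and not for sulfating keratan or chondroitin.

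Bulk RNA was sequenced from mouse cochlear ducts at E14.5, with 1 library from both inner ears of each of 9 embryos. The groups are 3 WT (Prdm16 +/+), 3 heterozygote (Prdm16 cGT/+, called Het) and 3 null embryos (Prdm16 cGT/cGT), which came from matings between Prdm16 cGT/+ mice kept on the FVB/NJ inbred background. The cGT allele is a gene trap carried in every cell of the embryo, and PRDM16 is a zinc-finger transcriptional regulator. Embryo numbers 1 to 3 are those of the labels. Which embryos shared a litter across genotypes is not stated, and the main fits did not pair them.

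Chondroitin and dermatan sulfate are long chains of alternating N-acetylgalactosamine (GalNAc) and a uronic acid, hung on core proteins of the extracellular matrix, and keratan sulfate is a chain of galactose and N-acetylglucosamine (GlcNAc). The place of the sulfate on the sugar sets which proteins a chain can bind. In the developing cochlea, sulfated proteoglycans are part of the matrix beneath and above the epithelium, including the tectorial membrane. That membrane is laid down over Kölliker's organ, the epithelial ridge medial to the prosensory domain from which hair cells form. The study lists Prdm16 as a marker of Kölliker's organ at E14.5 and found PRDM16 staining in the nuclei of its cells. It also reports moderate or low staining in other parts of the duct.

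Total counts ranged from 24095322 to 30819118 per library. A count of 3, taken as the floor, corresponds to 0.0969 to 0.126 CPM (counts scaled to a common library size with TMM factors over all 9 libraries), which covers counting error only. Prdm16 was counted 6076, 5030 and 5422 times in the WT embryos, 3766, 3404 and 3860 times in the heterozygotes and 574, 591 and 654 times in the null embryos, in the order of the labelled genotypes. Libraries of the same genotype differed by 5.7 to 68.8 in chi-square per gene, where sampling noise alone gives about 1, so none was a repeat of another. The library of Null embryo 3 stood apart. The cartilage proteoglycan gene Acan was at 502 CPM in it and between 1.02 and 7.03 CPM in the other 8 libraries, and the cartilage matrix gene Matn1 was at 391 CPM against 5.18 to 13.6 CPM. The 6 mesenchyme markers summed to 412 and 825 CPM in WT embryos 1 and 2 and to 1262 CPM in Null embryo 3, against 28.2 to 94.8 CPM in the other 6 libraries. Endothelial markers followed the same split, with 40.7 to 70.8 CPM in those 3 libraries and 2.36 to 5.38 CPM in the others, where Cdh5 was at 0 in WT embryo 3 and Het embryo 2. Markers of other tissue were thus unequally represented, and for the values they moved with most the level in each library or the value without Null embryo 3 is given below.

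All 10 genes passed the filter on low counts in each pair of genotypes. Differences were estimated with edgeR's quasi-likelihood fit over all genes of each pair, and a gene was called when its Benjamini-Hochberg adjusted p was under 0.05 and its absolute log2 fold change over 0.5. Between null and WT, 2 of the 10 genes were called, Chst5 higher and Chst15 lower, where 1.71% of 17168 genes were called, 0.92% higher and 0.786% lower. The median log2 fold change of the 10 genes was 0.006, beside 0.0097 for all genes tested. Between null and heterozygote, the same pair of genes was called (0.615% of 17067 genes, 0.293% higher and 0.322% lower), with a median of 0.083 over the 10. Between heterozygote and WT, 0 of 10 were called by edgeR or by DESeq2 (0.151% of 17269 genes by edgeR), and 3 of the 10 had an unadjusted p under 0.05, as did 2266 of the 17269 genes. Any 2 of these comparisons share the libraries of 1 genotype and are not independent. The values in null embryos helped to choose the list, so these shares are given only as its setting.

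**Figure D1:**
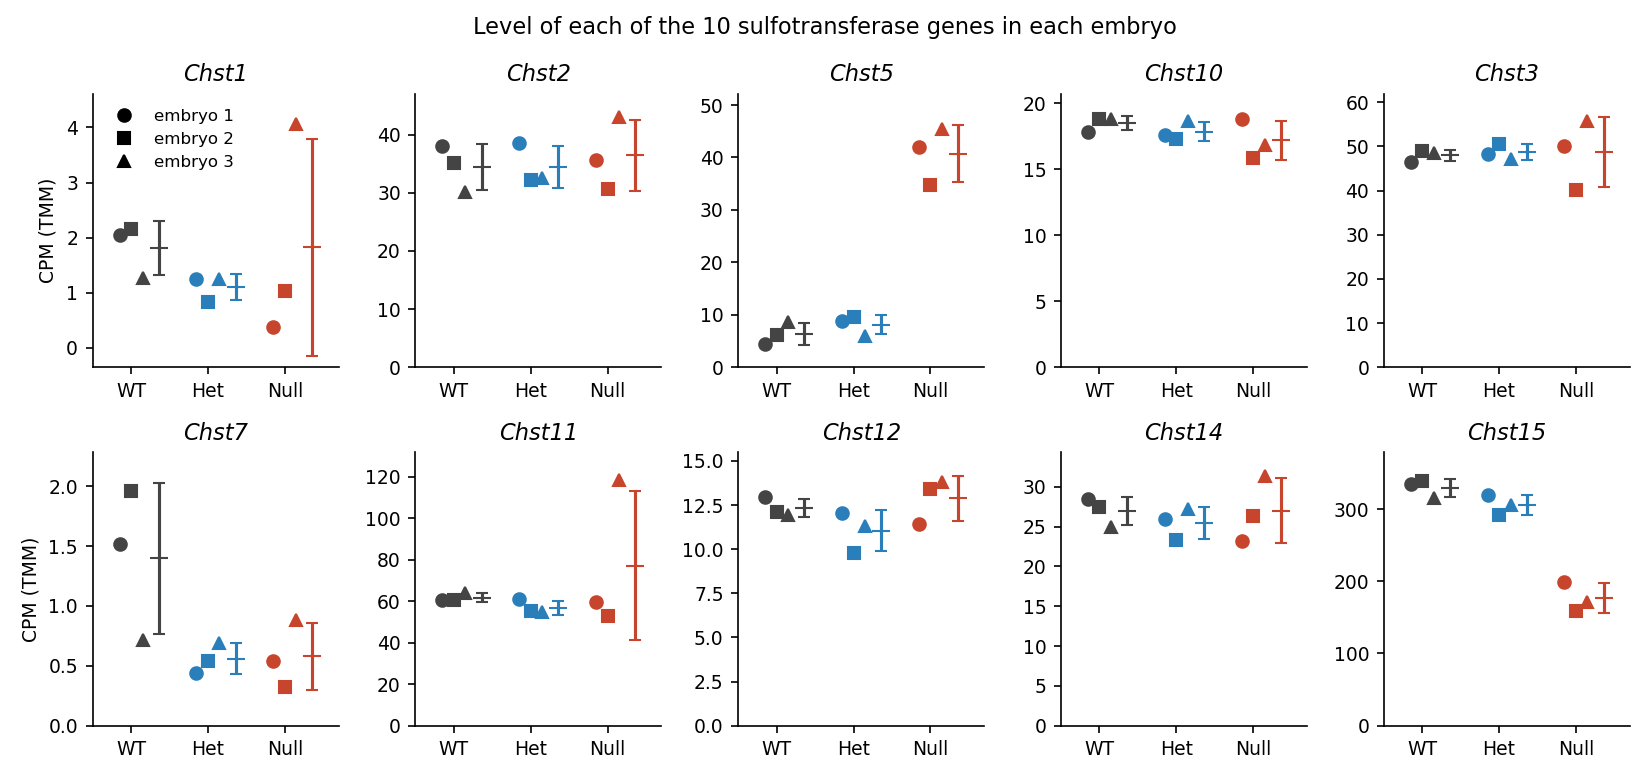
Level of each of the 10 genes in CPM with TMM scaling (vertical axes) in WT, Het and Null embryos; each marker is 1 embryo, its shape gives the embryo number, and the bar beside each group is the mean with the SD over 3 embryos. Chst5 lay at 34.7 to 45.5 CPM in the null embryos and below 10 CPM in the other 6, Chst15 fell below 200 CPM in the null embryos alone, and Chst11 and Chst1 were highest in Null embryo 3.

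Chst5 (ENSMUSG00000031952) was the gene with the widest difference between genotypes. It encodes a GlcNAc 6-O-sulfotransferase, an enzyme that sulfates the GlcNAc of keratan-type chains and is known from intestine and cornea. Chst5 was at 4.45, 6.12 and 8.55 CPM in WT embryos 1, 2 and 3, at 8.80, 9.52 and 6.03 CPM in the heterozygotes and at 42.0, 34.7 and 45.5 CPM in the null embryos. The raw counts behind these levels were 120 to 252 in WT, 165 to 264 in heterozygotes and 1017 to 1086 in null embryos. Null embryos did not overlap with either other genotype, whereas WT and heterozygotes did overlap with each other. The mean was 6.37 ± 2.06 CPM in WT, 8.12 ± 1.84 CPM in heterozygotes and 40.8 ± 5.49 CPM in null embryos (SD, n = 3 each), a 6.40-fold higher level in null than in WT.

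On the log2 scale, Chst5 was higher by 2.67 (SE 0.241) in null than in WT, by 2.33 (SE 0.19) in null than in heterozygote, and by 0.35 (SE 0.244) in heterozygote than in WT. Without Null embryo 3 it was 2.58 (SE 0.243) against WT. In the 3 libraries with the highest mesenchyme markers, Chst5 was at 4.45 and 6.12 CPM in WT and 45.5 CPM in null. In the other 6 it was at 8.55 CPM in WT, 6.03 to 9.52 CPM in heterozygotes and 34.7 and 42.0 CPM in null. When each embryo was left out in turn, the fold change ran from 2.47 to 2.95.

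Chst5 occupies bases 111889136 to 111910447 of chromosome 8 (mm10, minus strand). GENCODE gives it 1 transcript, whose whole coding sequence of 395 codons sits in 1 exon. None of its 2133 stretches of 50 bases, the length of a read, occurs in the transcripts of another gene (0 shared). Near-identical stretches were not searched for. The nearest protein-coding gene, Tmem231, lies 1564 bases away on the same strand. It differed by -0.1 (SE 0.0973, edgeR adjusted p = 0.737) between null and WT. None of the 6 protein-coding genes within 100 kb of Chst5 was called in that comparison. Gabarapl2 showed the largest of their differences at 0.3 (SE 0.23, edgeR adjusted p = 0.663). RefSeq places the start of Chst5 at 111910199, inside the first untranslated exon of the GENCODE transcript, so its promoter window is not printed.

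The marker lists of 3 other epithelial regions had higher sums in null embryos than in WT. The 5 prosensory domain markers (Sox2, Jag1, Hey2, Fgf20 and Lfng) summed to 552 to 591 CPM in WT, 679 to 716 CPM in heterozygotes and 654 to 860 CPM in null embryos. Jag1 made up 65.8% to 71.9% of this sum. Of the 5 markers, 2 were called higher in null than in WT, and none of the 5 was at 0 in any library. The 5 roof markers summed to 7559 to 8831 CPM in WT, 9133 to 9557 CPM in heterozygotes and 10437 to 13889 CPM in null embryos, of which Oc90 made up 95.7% to 96.3%, with 0 of 5 called by edgeR and 4 of 5 at an unadjusted p under 0.05. The 4 outer sulcus markers summed to 1190 to 1350 CPM in WT, 1258 to 1513 CPM in heterozygotes and 1403 to 1966 CPM in null embryos, with 0 of 4 called by edgeR and 2 of 4 at an unadjusted p under 0.05. In the study's own lists of 20 genes for each region, taken from single cells of WT cochlea, 4 prosensory genes were called higher and 0 lower in null against WT, 1 roof gene higher and 0 lower, and 1 outer sulcus gene higher (Sgk1) and 1 lower (Tac1, at -1.27, SE 0.152, edgeR adjusted p = 0.00762). The median log2 fold changes of these lists were 0.213, 0.177 and 0.215. Over all genes tested in null against WT, 2101 of 17168 had an unadjusted p under 0.05. The part of these regions in the level of Chst5 was not tested, and in bulk RNA more cells of a type and more RNA per cell cannot be told apart.

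Chst2, the other GlcNAc 6-O-sulfotransferase of the group, did not share this pattern. Its level was 38.1, 35.1 and 30.2 CPM in WT, 38.5, 32.2 and 32.5 CPM in heterozygotes and 35.6, 30.7 and 43.0 CPM in null embryos, and the 3 genotypes overlapped. Null and WT differed by 0.07 on the log2 scale (SE 0.145), and -0.06 (SE 0.131) without Null embryo 3. Levels of different genes were compared per kilobase of exon (RPKM). Per length, Chst5 stood at 0.643 ± 0.284 of Chst2 in WT, 0.794 ± 0.186 in heterozygotes and 3.77 ± 0.201 in null embryos (SD, n = 3), so the order of the pair was turned in each null embryo, where the ratio ran from 3.56 to 3.96. Together the pair made up 7.96 ± 0.604% of the summed RPKM of the 10 genes in WT, 9.30 ± 1.12% in heterozygotes and 25.7 ± 0.918% in null embryos.

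Chst1, which sulfates the galactose of keratan chains, was sparse. It was counted 55, 55 and 37 times in WT, 31, 23 and 34 times in heterozygotes and 9, 32 and 97 times in null embryos. As CPM these are 2.04, 2.16 and 1.26 in WT, 1.25, 0.829 and 1.24 in heterozygotes and 0.372, 1.03 and 4.07 in null embryos. Heterozygotes lay below WT without overlap, the highest of them only just under WT embryo 3, and the null embryos spanned the whole range of both. The log2 fold change from WT to null was -0.01 (SE 0.722) with all embryos and -1.34 (SE 0.49) without Null embryo 3, the library with the highest Acan level. Within the 3 libraries with the highest mesenchyme markers Chst1 ran from 2.04 to 4.07 CPM, and in the other 6 from 0.372 to 1.26 CPM. The part of attached tissue in its level was not tested.

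Chst10, the HNK-1 3-O-sulfotransferase, was not called in any comparison. It lay between 17.9 and 18.8 CPM in WT, between 17.3 and 18.7 CPM in heterozygotes and between 15.9 and 18.8 CPM in null embryos. Null embryos 2 and 3 were below all 3 WT embryos and Null embryo 1 was among them. Null and WT differed by -0.11 on the log2 scale (SE 0.115).

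Chst15 (ENSMUSG00000030930) changed in the opposite direction to Chst5. It encodes the GalNAc 4-sulfate 6-O-sulfotransferase, which adds a further sulfate to 4-sulfated chondroitin and so makes the disulfated chondroitin sulfate E. Chst15 was at 334, 338 and 315 CPM in WT embryos 1, 2 and 3, at 319.7, 292 and 306 CPM in the heterozygotes and at 199, 159 and 172 CPM in the null embryos. The null embryos lay below all 6 others, and the highest heterozygote was above the lowest WT embryo. The mean was 329 ± 12.5 CPM in WT, 306 ± 13.9 CPM in heterozygotes and 177 ± 20.5 CPM in null embryos (SD, n = 3 each), so null embryos held 53.7% of the WT level and heterozygotes 92.9%.

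The log2 fold change of Chst15 was -0.90 (SE 0.0965) between null and WT, -0.79 (SE 0.0965) between null and heterozygote and -0.11 (SE 0.0477) between heterozygote and WT. Without Null embryo 3 the difference from WT was -0.88 (SE 0.113). In the 3 libraries with the highest mesenchyme markers the levels were 334 and 338 CPM in WT and 172 CPM in null. In the other 6 they were 315 CPM in WT, 292 to 319.7 CPM in heterozygotes and 159 and 199 CPM in null. Each embryo left out in turn gave -1.0 to -0.83 against WT. Against heterozygotes these fits gave -0.88 to -0.72, and the call was lost without any 1 of the 3 heterozygotes.

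Most Kölliker's organ markers were lower in null embryos, as was Chst15. The 6 genes of the marker list (Fgf10, Tecta, Efhd1, Clic6, Snap91 and Rgcc) summed to 3134 to 3912 CPM in WT, 2981 to 3691 CPM in heterozygotes and 1610 to 1891 CPM in null embryos. Tecta made up 81.6% to 86.9% of this sum, and the other 5 genes summed to 532 to 680 CPM in WT, 482 to 562 CPM in heterozygotes and 217 to 258 CPM in null embryos. All 6 were called lower in null than in WT by edgeR, with a median log2 fold change of -1.44, and none was at 0 in any library. These 6 come from the 20 genes that the study lists for this region from single cells. The list also holds Prdm16 and Chst15 itself. Of the 18 listed genes other than Chst15 and Prdm16, 11 were called lower and 2 higher (Nrxn3 and Tectb) in null against WT, with a median of -0.812. Tectb, which encodes the tectorial membrane protein beta-tectorin, was at 0.94 (SE 0.16, edgeR adjusted p = 0.0326), and Dcn, the decorin gene, at -0.21 (SE 0.155, edgeR adjusted p = 0.658). The part of Kölliker's organ in the level of Chst15 was not tested.

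Chst15 occupies bases 132235780 to 132317228 of chromosome 7 (mm10, minus strand), with a coding sequence of 561 codons over 7 exons. An antisense gene, Gm10584, shares 1206 bases (17.9%) of its exons and held 36 to 69 counts per library, against 4101 to 9285 for Chst15. Of the 6652 stretches of 50 bases in its transcripts, 1097 (16.5%) also occur in transcripts of other genes on either strand, 1063 of them in Gm10584 and 34 in any of the rest. The strand setting of the counting is not given in the sources used here, and reads of the shared bases cannot be told apart without it. RefSeq and GENCODE give Chst15 the same first base. The 250 bases before it are shown because they precede the most abundant gene of the group, the one lower in null embryos. They are RefSeq sequence of GRCm38.p6, chr7:132317229-132317478 on the minus strand, written 5′ to 3′, with the GC-box letters GGGCGG (or CCGCCC on the other strand) in capitals.
Chst15 upstream: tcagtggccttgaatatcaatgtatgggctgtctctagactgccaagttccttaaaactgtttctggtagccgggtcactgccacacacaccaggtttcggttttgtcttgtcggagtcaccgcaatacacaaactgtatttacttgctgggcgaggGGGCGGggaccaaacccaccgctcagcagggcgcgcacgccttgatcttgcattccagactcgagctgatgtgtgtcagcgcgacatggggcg
A second match spans the start itself. The bases shown also lie in an exon of the antisense gene.

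RefSeq windows from 250 bases before to 50 bases after the start were found for all 10 genes, and Chst15 has a second one. These windows follow the RefSeq start, which lay 1410 bases inside the GENCODE gene for Chst1, 248 bases inside it for Chst5 and 548 bases outside it for Chst2, and within 59 bases of its first base for the other 7. In the first-listed window of each gene, GGGCGG or its reverse complement was present in 8 of the 10 genes, in Chst5 and Chst15 alike, and absent from the windows of Chst1 and Chst10. The same letters were in 35.7% of 32851 mouse promoter windows. TATAAA or TTTATA was in 0 of the 10 genes and in 13.6% of all windows, and CCAAT or ATTGG was in 3 of the 10 (Chst7, Chst10 and Chst12) and in 37.4% of all windows. The GC content of the members' windows ran from 52.7% to 73.0%, where the median of all windows was 52.7%. No factor binding was measured in these embryos, and these letter counts describe the windows alone.

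Chst11 and Chst12, the chondroitin 4-O-sulfotransferases that make the 4-sulfated chains which Chst15 acts on, were not called in any comparison. Chst11 was at 60.4, 60.4 and 64.1 CPM in WT, 60.8, 55.1 and 54.6 CPM in heterozygotes and 59.6, 53.1 and 118 CPM in null embryos. The 118 CPM of Null embryo 3 was the highest value of the 9 libraries, and the other 2 null embryos lay below all 3 WT embryos. Against WT, its log2 fold change in null embryos was 0.31 (SE 0.275) and became -0.13 (SE 0.0983) without Null embryo 3. The cartilage genes Acan and Matn1 were high in that library alone. With the summed cartilage markers as a covariate, an alternative added after this was seen, the value was -0.07 (SE 0.114). The covariate and that library are hard to separate. The markers summed to 13562 CPM in it and to 6550 to 7555 CPM in the other 8. Col2a1 made up 64.4% to 74.2% of the sum and was at 4494 to 5493 CPM in those 8 libraries. The part of cartilage in the Chst11 value was not tested.

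Chst12 lay between 11.9 and 12.9 CPM in WT, between 9.77 and 12.05 CPM in heterozygotes and between 11.4 and 13.8 CPM in null embryos. Null embryos differed from WT by a log2 fold change of 0.06 (SE 0.13), and the groups overlapped. Chst15 stood at 2.98 ± 0.162 times the summed RPKM of Chst11 and Chst12 in WT and 3.03 ± 0.0787 times in heterozygotes. In the null embryos the ratio was 1.89, 1.54 and 0.935, each below all WT and heterozygote values.

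**Figure D2:**
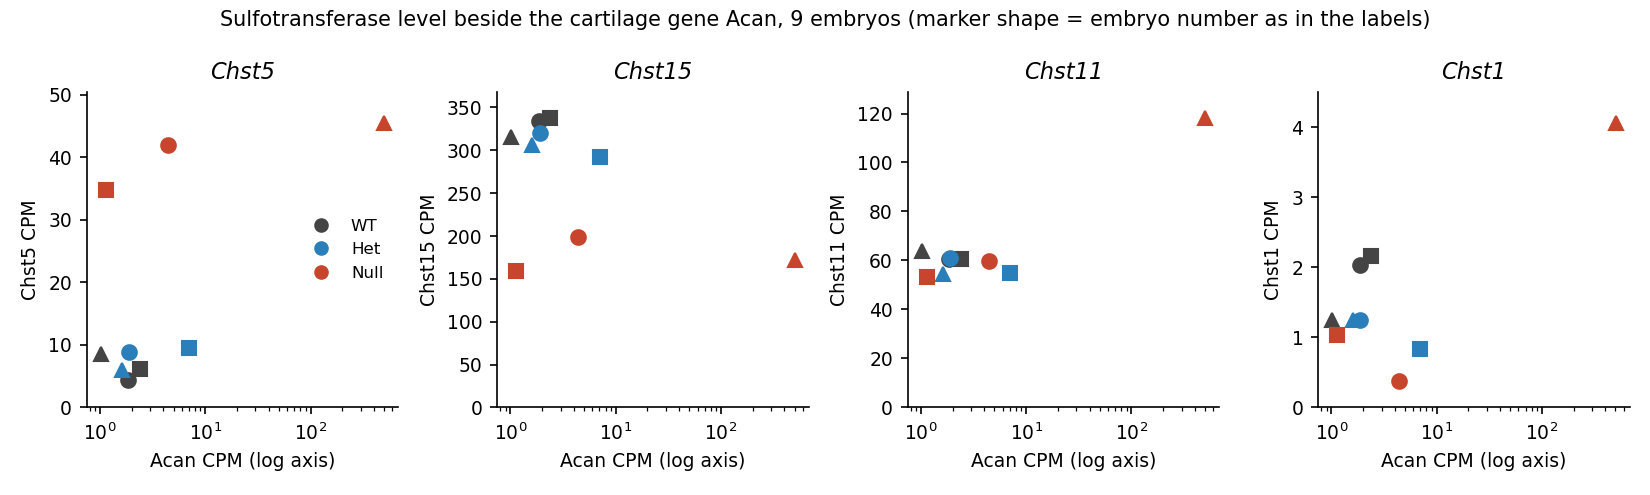
Level of Chst5, Chst15, Chst11 and Chst1 in CPM (vertical axes) against the CPM of the cartilage gene Acan (horizontal log axes), 1 marker per embryo. Null embryo 3 lies alone at the right with an Acan level of 502 CPM; Chst11 and Chst1 peak there, whereas Chst5 and Chst15 in that embryo lie among the values of the other null embryos or next to them.

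Chst14, which sulfates the 4-position in dermatan, was second in level per length in WT. It was measured at 28.5, 27.5 and 24.97 CPM in WT, 25.9, 23.3 and 27.2 CPM in heterozygotes and 23.2, 26.4 and 31.4 CPM in null embryos. The groups overlapped, with a log2 fold change of -0.0029 (SE 0.131) in null embryos against WT.

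The chondroitin 6-O-sulfotransferases Chst3 and Chst7 differed widely in level from each other. Chst3, the main enzyme of this reaction, ran from 46.6 to 48.95 CPM in WT, from 47.1 to 50.6 CPM in heterozygotes and from 40.2 to 55.8 CPM in null embryos. Null embryos differed from WT by 0.02 (log2, SE 0.124), and the coefficient of variation over embryos was 2.61% in WT and 16.2% in null.

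Chst7 was the gene with the lowest level per length. Its counts were 41, 50 and 21 in WT, 11, 15 and 19 in heterozygotes and 13, 10 and 21 in null embryos. In CPM it was at 1.52, 1.96 and 0.712 in WT, 0.442, 0.541 and 0.695 in heterozygotes and 0.537, 0.323 and 0.880 in null embryos. WT embryos 1 and 2, which are 2 of the 3 libraries with the highest mesenchyme and endothelial markers, were the highest of all 9. Null embryo 3, the other of these libraries, was at 0.880 CPM. WT embryo 3 was above the highest heterozygote by a small margin and below Null embryo 3. The log2 fold change was -1.28 (SE 0.503) between null and WT and -1.30 (SE 0.414) between heterozygote and WT, and edgeR called neither. The second value became a call with -1.62 when WT embryo 3 was left out and was -0.98 without WT embryo 2. Without both WT embryos 1 and 2, WT embryo 3 would be the only WT library, and no such fit was made. The summed melanocyte markers were also higher in WT, at 50.9 to 122 CPM. They were at 19.0 to 37.7 CPM in heterozygotes and 11.3 to 39.9 CPM in null embryos. In null against WT, edgeR called 0 of 4, and 4 of 4 had an unadjusted p under 0.05, as did 2101 of all 17168 genes. The part of attached tissue in these values was not tested.

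Counting separation between groups, 2 of the 10 genes did not overlap between null and WT (Chst5 and Chst15), where 19.0% of all genes tested did not overlap, 10.1% higher and 8.95% lower. Between heterozygote and WT the genes without overlap were Chst1 and Chst7, both lower (18.0% of all genes, 8.99% lower), and between null and heterozygote they were Chst5 and Chst15 again (18.2%, 9.06% higher and 9.09% lower).

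**Figure D3:**
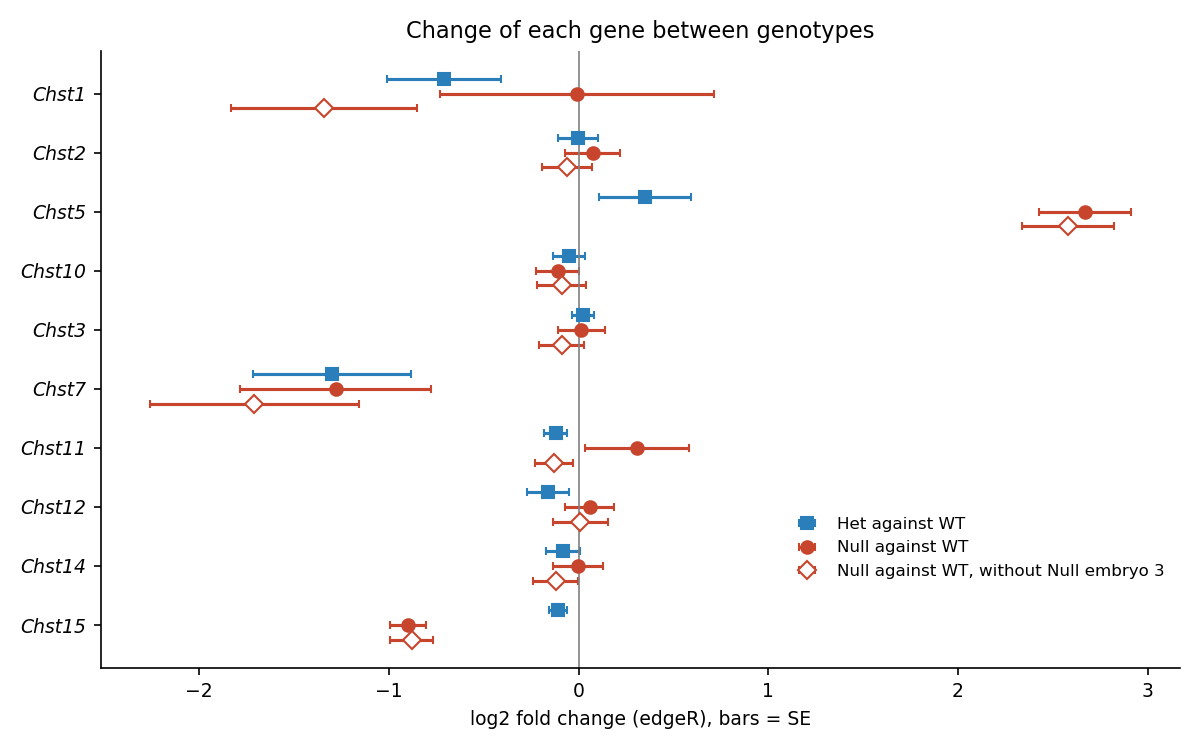
Log2 fold change of each gene (horizontal axis) with its SE as bars, for Het against WT (squares), Null against WT (filled circles) and Null against WT without Null embryo 3 (open diamonds). Without Null embryo 3, Chst5 goes from 2.67 to 2.58 and Chst15 from -0.90 to -0.88. Chst1 moves from -0.01 to -1.34 and Chst11 from 0.31 to -0.13.

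Ordered by level per length in WT, the genes ran from Chst15 at 48.7 ± 1.85 RPKM through Chst14 at 12.9 ± 0.859, Chst11 at 11.2 ± 0.38, Chst3 at 7.39 ± 0.193, Chst12 at 5.22 ± 0.223, Chst2 at 4.70 ± 0.544, Chst5 at 2.92 ± 0.946 and Chst10 at 1.55 ± 0.0459 to Chst1 at 0.678 ± 0.183 and Chst7 at 0.634 ± 0.287 (SD, n = 3). Chst12 and Chst2 overlapped in that order, as did Chst1 and Chst7, and every other neighbouring pair was separate in the 3 WT embryos. With the longest transcript as length in place of the exon union, Chst10 was at 3.35 RPKM in WT and stood before Chst5. Chst15 was above 95.7% of the genes tested per length and Chst5 above 39.9%. In heterozygotes, Chst2 and Chst12 were exchanged and the remaining order was the same. In null embryos, Chst5 moved from the seventh place to the second with 18.7 ± 2.52 RPKM, behind Chst15 with 26.2 ± 3.03 RPKM. The 3 null values of Chst15, from 23.5 to 29.5 RPKM, stayed above the 15.9 to 20.9 RPKM of Chst5. Chst5 overlapped with Chst11, the gene after it, which held 9.60 to 21.4 RPKM in null embryos.

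**Figure D4:**
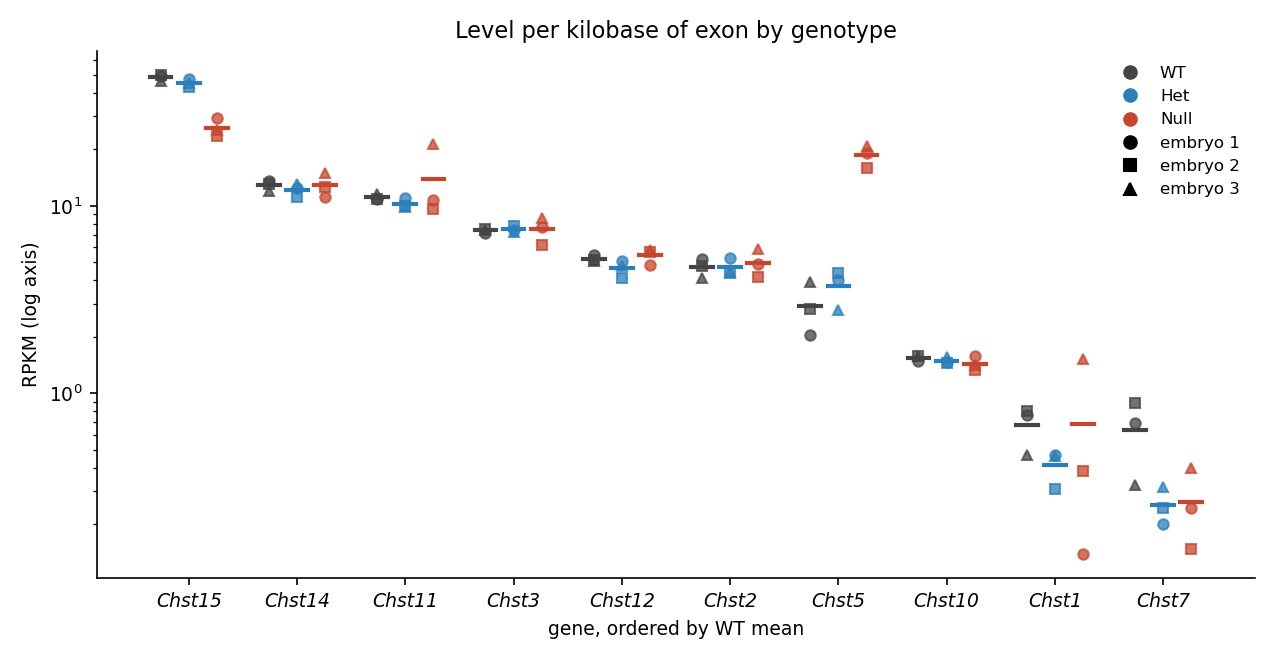
Level of each gene in RPKM (vertical log axis), ordered by its WT mean; markers are single embryos of WT, Het and Null, shapes give the embryo number and short lines the group means. Chst5 moves from 2.92 RPKM in WT to 18.7 RPKM in Null, next to Chst15, which moves from 48.7 to 26.2 RPKM.

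Summed over the 10 genes, the level per length was 95.9 ± 2.45 RPKM in WT, 90.5 ± 3.91 RPKM in heterozygotes and 92.0 ± 13.5 RPKM in null embryos, and 84.8 RPKM without Null embryo 3. Chst15 held 50.8 ± 0.635% of this sum in WT, 50.03 ± 0.393% in heterozygotes and 28.8 ± 4.47% in null embryos, with 32.8%, 29.6% and 23.9% in Null embryos 1, 2 and 3. The ratio of the 4-O enzymes Chst11 and Chst12 to the 6-O enzymes Chst3 and Chst7 was 2.04 ± 0.122 in WT, 1.93 ± 0.176 in heterozygotes and 2.47 ± 0.533 in null embryos. It ran from 1.97 to 3.03 in the null embryos and was highest in Null embryo 3, without which the mean of the null embryos was 2.19. These are sums of RNA levels and not of enzyme activity, which was not measured here.

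**Figure D5:**
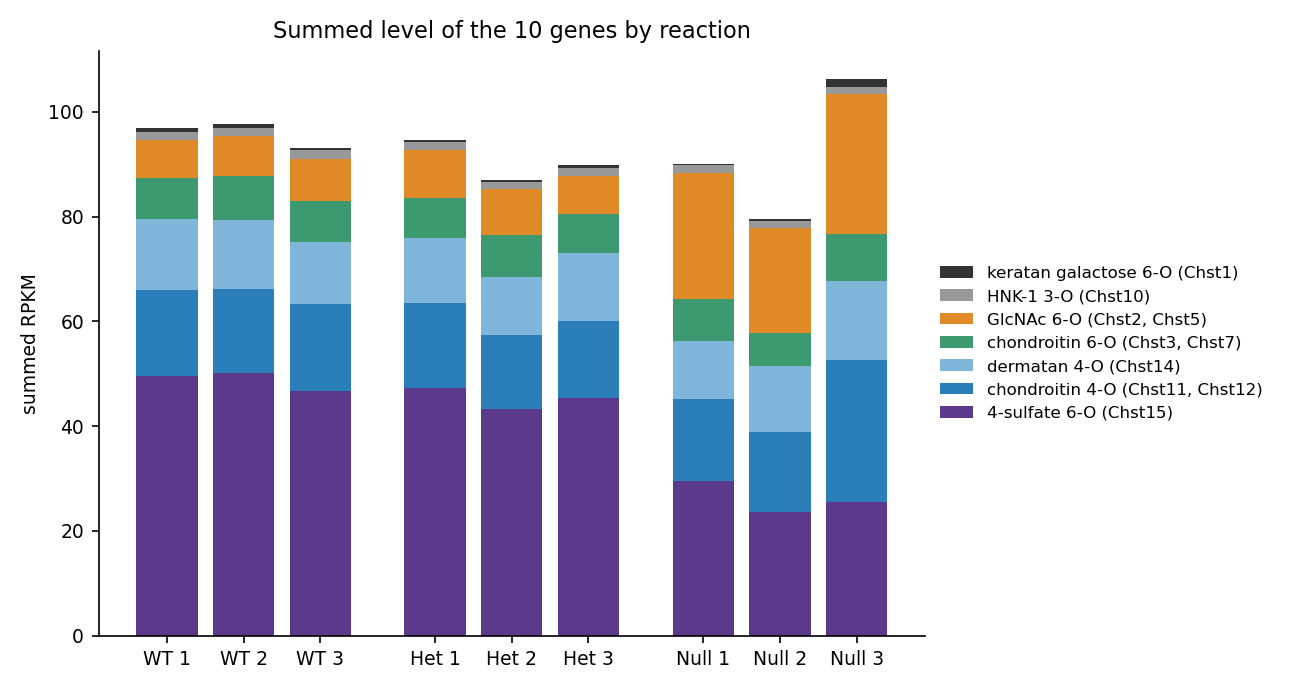
Summed RPKM of the 10 genes in each embryo (vertical axis), stacked by the reaction their enzymes catalyse. Averaged over the 3 embryos of a genotype, Chst15 makes up 50.8% of a WT bar and 28.8% of a Null bar, the share of Chst2 and Chst5 goes from 7.96% to 25.7%, and the bar of Null embryo 3 is the tallest at 106 RPKM.

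The pathway around these enzymes was read from lists of 91 further genes, of which 85 were tested. Between null and WT, 1 of the 85 was called higher and 2 lower (1.71% of all genes were called), with a median log2 fold change of 0.068. Between heterozygote and WT, edgeR called 0 of 85 (18 at an unadjusted p under 0.05, and 2 called lower by DESeq2, Bgn and Chsy3), and between null and heterozygote it called 1 lower (0.615% of all genes). Bgn, which encodes the proteoglycan biglycan, was at 36.3, 59.7 and 7.74 CPM in WT, 4.06, 7.43 and 4.13 CPM in heterozygotes and 4.67, 2.55 and 122 CPM in null embryos. Its 3 highest libraries were WT embryos 1 and 2 and Null embryo 3, those with the highest mesenchyme markers, and the part of attached tissue in its level was not tested.

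Of the 19 core protein genes whose products carry chondroitin or keratan chains, 18 were tested, 2 were called lower in null than in WT and 0 higher. Spock1, which encodes the proteoglycan testican-1, was at 344, 305 and 283 CPM in WT, 310.3, 242 and 274 CPM in heterozygotes and 149, 139.9 and 134 CPM in null embryos. Spock1 is also among the 18 listed Kölliker's organ genes above, as 1 of the 11 called lower. Null embryos lay below all others and held 45.3% of the WT mean. The fall was -1.15 (SE 0.0899, edgeR adjusted p = 0.00173) against WT and -0.97 (SE 0.101, edgeR adjusted p = 0.00812) against heterozygotes, where the call was lost without heterozygote 1 (-0.87, edgeR adjusted p = 0.0595) or heterozygote 3 (-0.97, edgeR adjusted p = 0.0826). Epyc, which encodes the small leucine-rich proteoglycan epiphycan, was at 232, 144 and 123 CPM in WT, 137, 36.02 and 71.3 CPM in heterozygotes and 24.0, 37.1 and 59.4 CPM in null embryos. It fell by 2.05 on the log2 scale (SE 0.349, edgeR adjusted p = 0.0316) in null against WT. This call was lost when any embryo but Null embryo 3 was left out, with a range of adjusted p from 1.09e-04 to 0.127 over 13 alternatives. Acan, the aggrecan gene, showed the largest value of the list at 6.59 (SE 2.15, edgeR adjusted p = 0.247), and was at 0.65 (SE 0.571, edgeR adjusted p = 0.633) without Null embryo 3.

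Among 14 heparan sulfate sulfotransferases tested, 1 was called higher and 0 lower. Hs3st6, a heparan sulfate 3-O-sulfotransferase, was at 22.9, 27.6 and 29.3 CPM in WT, 30.2, 36.6 and 26.7 CPM in heterozygotes and 44.1, 51.2 and 40.4 CPM in null embryos. Null embryos lay above all others, and the rise against WT was 0.76 (SE 0.135, edgeR adjusted p = 0.0372). As with Epyc, the call was lost without any embryo but Null embryo 3, and the adjusted p ran from 1.98e-05 to 0.156 over 13 alternatives. Hs3st5 had the largest value of this list in the other direction, -1.36 (SE 0.329, edgeR adjusted p = 0.111).

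No other pathway list held a called gene in null against WT. Of the other Chst genes, 3 of 4 were tested, and the largest value was that of Chst8, a GalNAc 4-O-sulfotransferase of glycoprotein hormones, at 0.59 (SE 0.314, edgeR adjusted p = 0.51). Chst4, a GlcNAc 6-O-sulfotransferase related to Chst5, was below the filter with at most 0.587 CPM in any embryo. Among sulfotransferases of other Golgi glycans, 3 of 5 were tested and Gal3st3, a galactose 3-O-sulfotransferase, was at 0.19 (SE 0.114, edgeR adjusted p = 0.565).

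Of the 14 genes that start and lengthen chondroitin chains, Csgalnact1, which adds the first GalNAc, had the largest value at 2.56 (SE 1.21, edgeR adjusted p = 0.454). It was at 9.51 CPM in Null embryo 3 and at most 0.926 CPM elsewhere, and the value was -0.24 (SE 0.689, edgeR adjusted p = 0.901) without that embryo. Chsy3, a chondroitin synthase gene, was at 2.15, 3.26 and 2.07 CPM in WT, 0.884, 1.01 and 0.731 CPM in heterozygotes and 0.702, 0.452 and 3.77 CPM in null embryos. It was not called with all null embryos at -0.62 (SE 0.713, edgeR adjusted p = 0.78), and was called without Null embryo 3 at -2.12 (edgeR adjusted p = 0.0339). Of the 7 tested genes of keratan and poly-LacNAc chains, B3gnt2, which extends such chains with GlcNAc, was at 0.5 (SE 0.402, edgeR adjusted p = 0.68). B3gat1, a glucuronyltransferase that builds the HNK-1 sugar on which Chst10 acts, was at 0.58 (SE 0.225, edgeR adjusted p = 0.35).

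None of the 8 genes that bring in sulfate or make and move PAPS was called in null against WT. The largest value was 1.16 (SE 0.432, edgeR adjusted p = 0.322) for Papss2, a PAPS synthase. Papss2 was at 31.6, 29.1 and 35.8 CPM in WT, 36.4, 36.5 and 34.2 CPM in heterozygotes and 41.9, 41.6 and 133 CPM in null embryos. All 3 null embryos lay above the other 6, and without Null embryo 3 the value was 0.37 (SE 0.114, edgeR adjusted p = 0.15). Of the 16 genes of desulfation and breakdown, 0 were called by edgeR, 0 had an unadjusted p under 0.05, and the largest value was that of the hyaluronidase gene Hyal1 at -0.38 (SE 0.201, edgeR adjusted p = 0.509).

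Over the 9 libraries and 17797 genes, the profiles most like that of Chst5 in log2 CPM were those of Gm45889 (Pearson r = 0.988), Cpm (0.981), Akr1cl (0.977), Cdk6 (0.973) and Rims2 (0.972). Cpm, which encodes a membrane carboxypeptidase, was at 14.2 to 23.4 CPM in WT, 23.8 to 34.8 CPM in heterozygotes and 75.1 to 84.8 CPM in null embryos, whereas Cdk6, a cyclin-dependent kinase gene, ran from 20.9 to 23.4 CPM in WT and from 32.7 to 38.9 CPM in null embryos. Those most like Chst15 were Pappa2 (0.993), Ptprn2 (0.987), Rasef (0.987), 1500015O10Rik (0.984) and Snap91 (0.983). Pappa2, which encodes a protease of insulin-like growth factor binding proteins, was at 57.7 to 65.4 CPM in WT, 50.4 to 58.3 CPM in heterozygotes and 16.7 to 24.2 CPM in null embryos. Snap91 is among the Kölliker's organ markers above, and 1500015O10Rik is also in the study's list for that region. All points share the genotype of their library, and these values describe likeness over 9 libraries.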

How the data were processed

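The assay was bulk RNA sequencing of E14.5 mouse cochlear ducts, 1 library for each of 3 WT, 3 heterozygote and 3 null embryos of the Prdm16 cGT strain. The authors made TruSeq mRNA libraries, sequenced 50 base single reads on a HiSeq and aligned them to mm10 with STAR. The submitters' processing notes also name cutadapt 1.13, HTSeq 0.6.1p1 and DESeq2. The authors deposited unnormalized whole-number read counts by Ensembl gene. Strand setting and annotation release are not given in the sources used here. All 37 mitochondrial genes hold 0 counts, so no mitochondrial share could be checked. The study names the heterozygote and WT embryos as littermate controls of the null embryos, with 3 littermates for each genotype, and does not state which libraries shared a litter across genotypes.

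Each pair of genotypes was fitted on its 6 libraries with edgeR 4.0.16 in R 4.3.3 (TMM, filterByExpr with a minimum count of 10, quasi-likelihood test, Benjamini-Hochberg over all genes tested), and a gene was called when the adjusted p was below 0.05 and the log2 fold change beyond 0.5 in size. The SE is the absolute log2 fold change divided by the square root of the test's F statistic. RPKM is TMM-scaled CPM per kilobase of the exon union of GENCODE vM21, which has the build of the files, and log2 CPM used a prior count of 2. Counts were simulated for 17168 genes in the null against WT design, with the same dispersion for every gene and no library set apart. All 98 genes changed by a log2 fold of 2 and 39 of 95 changed by 1 were recovered, with 10 false calls. The libraries here were less even than that, so these figures do not carry over to them directly.

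The 10 genes, the pathway lists and the marker lists were chosen with earlier results of these data known. Named genes are Prdm16, the 10 members, each pathway gene called in null or heterozygote against WT, the gene with the largest change where a list had none called, and the 5 genes most correlated with Chst5 and with Chst15. Acan, Hs3st5, Chst4, Bgn, Chsy3 and the markers were named after their values were seen, and the study's lists of 20 genes per region were added then. Alternatives were DESeq2 1.42.0, RLE or no composition normalization, dropping the low-count filter, a joint fit of all 9 libraries, a replicate block from the label numbers, leaving out each embryo, the longest transcript as length and Spearman correlation. A cartilage marker covariate was added after the data were seen. With 3 embryos per genotype, p-values measure the spread between these embryos only.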

Additional observations from a re-analysis of the deposited data

How the results depend on the processing

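Over the 13 alternatives in null against WT, the log2 fold change of Chst5 ran from 2.47 to 2.95 and that of Chst15 from -1.0 to -0.83, values of the libraries that the list was chosen on. The counts of all genes called moved more. In null against WT they were 618 with DESeq2, 476 without the low-count filter, 468 with all 9 libraries in one fit and 68 to 446 when each embryo was left out, against 293. In heterozygote against WT they were 317, 684 and 0 with the same 3 settings and 0 to 505 with embryos left out, against 26. In null against heterozygote they were 358, 366 and 164, and 12 to 182 with embryos left out, against 105. Of the 10 genes, 0 to 1 were called in heterozygote against WT with embryos left out and 1 without the filter (Chst7 both times), and 1 to 2 in null against heterozygote, where Chst15 lost its call without any 1 heterozygote. Pathway genes called in null against WT numbered 1 to 4 with embryos left out. In heterozygote against WT they numbered 2 with DESeq2, 4 without the filter and 0 to 2 with embryos left out. In null against heterozygote they numbered 2 with DESeq2, 6 without the filter and 0 to 1 with embryos left out. Same-numbered embryos correlated at 0.00534, -0.142 and -0.284 between null and WT, at 0.202, 0.112 and -0.0581 between heterozygote and WT, and at 0.139, -0.117 and 0.0826 between null and heterozygote. In no comparison were all 3 over 0.1, so the main fits did not pair embryos. These values cannot show that no libraries shared a litter. With the replicate block, 133, 197 and 52 genes were called in the 3 comparisons in this order, the pathway genes called were 1 in null against WT (Spock1) and 3 in heterozygote against WT, and the calls of the 10 genes were the same as without it. With the longest transcript as length, the WT level was 7.86 RPKM for Chst3, 3.35 RPKM for Chst10, above Chst5, and 65.3 RPKM for Chst15. With Spearman correlation, 0 of the 5 genes most like Chst5 and 1 of the 5 most like Chst15 were shared with the Pearson lists. The cause of these shifts was not tested. Counts of Chst1 and Chst7 were low, at 9 to 97 and 10 to 50 per library, and their SE were the largest of the 10 genes.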
